A study of Homo sapiens with 4 samples.

Results

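The 8 genes described here are lnc-GIP-1, lnc-CPT2-7, lnc-C8orf4-1, lnc-C8orf4-2, lnc-FARS2-1 and lnc-LSM11-4, which are long non-coding RNAs (lncRNAs), and IGF2BP1 and LRP8, the protein-coding genes that start beside lnc-GIP-1 and lnc-CPT2-7. They form 6 loci and are 8 of the 62700 genes that GENCODE v44 lists. H3K27ac was profiled by ChIP-seq in REH cells, which derive from an ETV6/RUNX1-positive B-cell precursor acute lymphoblastic leukemia (BCP-ALL), and in 697 cells, which derive from a BCP-ALL without that fusion, with 1 H3K27ac library and 1 input library for each cell line and no further treatment. With no replicates, no difference between REH and 697 could be set against the spread of a cell line, and no p-value is given. Each cell line stands for 1 leukemia, and the fusion cannot be told apart from any other difference between the cell lines. The lncRNAs came from a list that the study chose on their RNA levels, among them those in REH. The study also names IGF2BP1 as strongly up-regulated in ETV6/RUNX1-positive patients and LRP8 as correlated with lnc-CPT2-7. It had already described H3K27ac in REH at most of these lncRNAs. For all these genes, a direction toward REH is therefore not independent evidence. A gene's window was its body on hg19, with ends rounded to 100 bp, and 2 kb on each side. All peaks that overlapped this window by at least 1 bp were taken from the list called in each cell line, and the bases under peaks inside the window were counted.

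Acetylation of lysine 27 on histone H3 is deposited by the acetyltransferases CBP and p300 and marks nucleosomes at active promoters and enhancers. It is read as broad or narrow peaks in ChIP-seq, and wide clusters of the mark are known from genes that define a cell's identity. Many lncRNAs start from the same promoter region as a protein-coding gene on the opposite strand, and others are transcribed from enhancers. The names used here, such as lnc-GIP-1, point to a protein-coding gene in the neighborhood and say nothing of function. IGF2BP1 is a protein of embryonic tissues that binds messenger RNAs such as those of IGF2 and MYC and is silent in most adult cells. LRP8, also called APOER2, is a membrane receptor for reelin and for apolipoprotein E.

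To show which transcripts are meant, 1 exon is printed for each of 4 of the lncRNAs, as GENCODE v44 places it on GRCh38, in the direction of the transcript, with every CG dinucleotide in capitals. For lnc-FARS2-1 and lnc-LSM11-4 this is exon 1, of 157 and 190 bases, at chr6:5851506-5851662 on the plus strand and at chr5:158275711-158275900 on the plus strand. For lnc-GIP-1 and lnc-CPT2-7, whose exon 1 overlaps the first exon of the coding neighbor, it is exon 2, of 74 and 84 bases, at chr17:48996418-48996491 on the minus strand and at chr1:53331168-53331251 on the plus strand. These coordinates are not those of the peaks, which are on hg19.
lnc-GIP-1: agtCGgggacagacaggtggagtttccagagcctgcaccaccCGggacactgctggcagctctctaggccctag
lnc-CPT2-7: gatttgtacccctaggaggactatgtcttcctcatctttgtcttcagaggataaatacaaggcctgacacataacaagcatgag
lnc-FARS2-1: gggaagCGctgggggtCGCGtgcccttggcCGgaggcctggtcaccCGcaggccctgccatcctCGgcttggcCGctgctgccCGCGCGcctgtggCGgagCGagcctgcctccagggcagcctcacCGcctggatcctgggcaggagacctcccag
lnc-LSM11-4: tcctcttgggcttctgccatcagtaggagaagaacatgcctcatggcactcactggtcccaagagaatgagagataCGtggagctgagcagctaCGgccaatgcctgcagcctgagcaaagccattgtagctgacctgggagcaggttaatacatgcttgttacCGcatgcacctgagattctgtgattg
Exon 1 of lnc-FARS2-1 was rich in CG, with 13 CG dinucleotides and a GC content of 75.2%. Exon 1 of lnc-LSM11-4 held 3 CG in more bases, with a GC content of 52.1%. Exon 2 of lnc-GIP-1 held 2 CG and exon 2 of lnc-CPT2-7 none.

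All 8 genes had a REH peak in their window and 4 had a 697 peak, which were lnc-CPT2-7, LRP8, lnc-FARS2-1 and lnc-LSM11-4. The share of all genes with a peak in such a window was not counted, so these counts have no background. A gene was called higher in a cell line when the other cell line had no peak in the window or at most 1 base covered for every 2. Under this rule 6 genes were called higher in REH and 0 in 697, and LRP8 and lnc-LSM11-4 were not called. Over the genome, cut into tiles of 10 kb, 22.0% of the 66743 tiles with a peak in either cell line were called higher in REH and 50.3% higher in 697. The genes' windows ran from 6301 bp for lnc-GIP-1 to 90101 bp for LRP8 and so were not of the tiles' size, but tiles of 5, 20 and 100 kb gave 22.2%, 22.2% and 22.3% for REH. For 697 the share was 52.5%, 47.1% and 37.7% at these sizes, lower in larger tiles, so the background for the 0 genes called higher in 697 depends on the window. Counted as 6 loci, with lnc-GIP-1 joined to IGF2BP1 and lnc-CPT2-7 joined to LRP8, 4 were called higher in REH and 0 in 697. The windows of lnc-GIP-1 and IGF2BP1 share a REH peak and those of lnc-CPT2-7 and LRP8 share a peak of each cell line, so the 8 genes are not 8 separate observations.

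**Figure D1:**
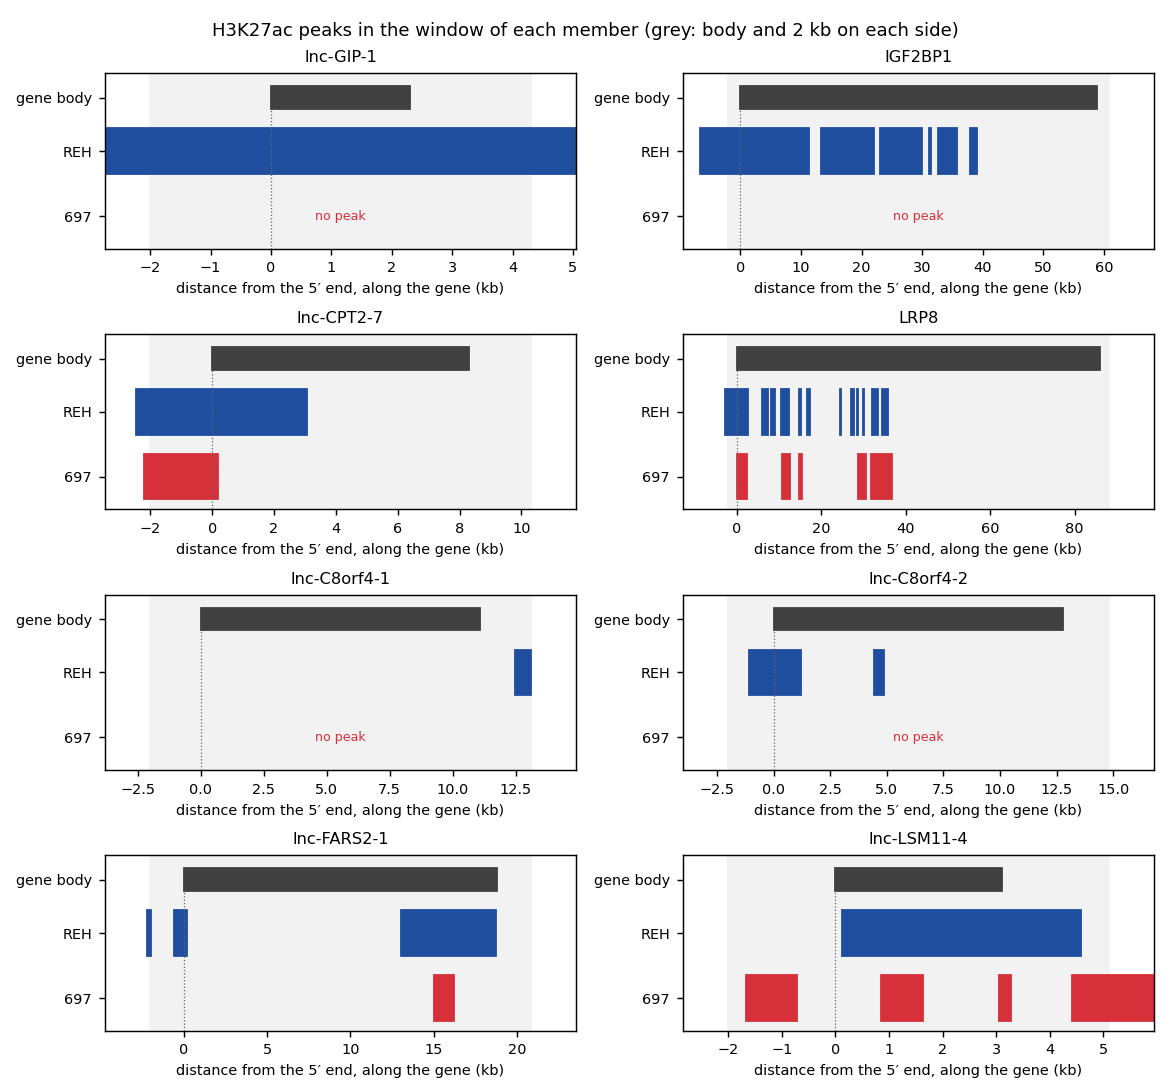
H3K27ac peaks of REH (blue) and 697 (red) in the window of each gene, with the distance from its 5′ end along the gene in kb on the horizontal axis, the gene body as a dark bar and the window shaded, from 1 library in each cell line. The 697 track is empty at lnc-GIP-1, IGF2BP1, lnc-C8orf4-1 and lnc-C8orf4-2, the REH peak at lnc-GIP-1 and the rightmost 697 peak at lnc-LSM11-4 run past the plotted range, and at the 5′ end of lnc-CPT2-7 and LRP8 both cell lines have a peak.

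The 8 windows held 25 different REH peaks and 10 different 697 peaks. No 697 peak lay over 17 of the 25 REH peaks, which is 68.0%, against 35.9% of all 44626 REH peaks. Of the 10 peaks of 697, 1 was free of REH peaks, which is 10.0%, against 61.1% of all 74504 peaks of that list. The peaks of 1 gene lie side by side and do not vary independently of each other. Among the 25 REH peaks, 12 lay in the LRP8 window and 6 in that of IGF2BP1. For this reason these shares carry no interval, and setting them beside the whole lists is a description and no test. The median width was 1122 bp for the REH peaks and 1459.5 bp for the 697 peaks, against 1060 bp and 871 bp in the whole lists, and 13 of the 25 in REH and 7 of the 10 in 697 were at least as wide as the median of their list. The ChIP libraries were of similar depth, with 65241657 REH and 68911420 697 tags after removal of duplicate positions. The deposited list was longer in 697, and the genes were covered more in REH. How depth, peak width and list length bear on this was not tested.

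The widest coverage was at the locus of lnc-GIP-1 and IGF2BP1 on chromosome 17, where REH had 6 peaks and 697 none. The genes start head to head, lnc-GIP-1 (ENSG00000250838) at chr17:47072600-47074900 on the minus strand and IGF2BP1 (ENSG00000159217) on the plus strand at chr17:47074700-47133500, and overlap by 108 bp in GENCODE v44. A REH peak of 17858 bp, at chr17:47068107-47085964, lay over both 5′ ends. It was the 41st widest of the REH list, in which 0.0919% of the peaks were at least as wide. It covered the body of lnc-GIP-1 in full and its window to 100.0% and reached 6793 bp downstream of its 5′ end. In 697 the covered bases of lnc-GIP-1 were 0.

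Within IGF2BP1 the same peak ran 11264 bp into the gene, and 5 more REH peaks followed it. They were 8758, 6974, 345, 3107 and 1122 bp wide and the last ended 39072 bp from the 5′ end, so that the 3′ part of the gene held no peak in REH. The 8758-bp and 6974-bp peaks also stood high in the list, in which 0.834% and 1.43% of the peaks were at least as wide. In all, REH peaks covered 33571 bp of the IGF2BP1 window, or 53.5%, and 697 peaks covered 0 bp. The nearest 697 peak ended 44455 bp upstream of the IGF2BP1 start. Between that peak and the next, 697 had no peak over 238059 bp, a stretch that 2.62% of the 74480 gaps between neighboring 697 peaks equal or exceed. That share counts gaps by number, while a long gap is more likely to hold a given gene, so it does not measure rarity. This stretch held 12 REH peaks between 345 and 17858 bp wide, which covered 46641 bp. The genes GIP, which encodes an incretin hormone of the gut, and B4GALNT2, a glycosyltransferase gene, are the coding neighbors of IGF2BP1 in RefSeq, and their windows were not analysed here.

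**Figure D2:**
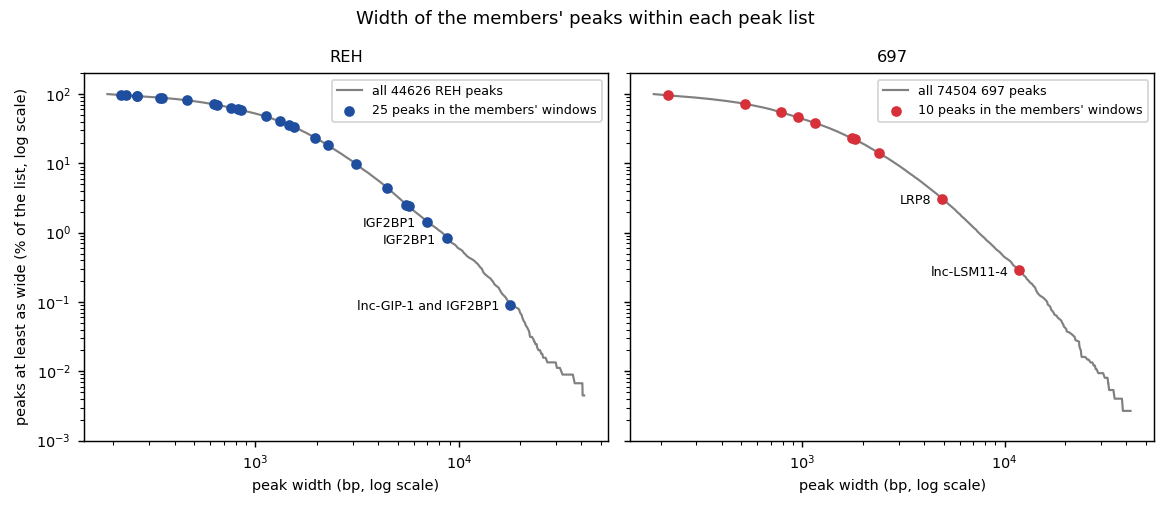
Percent of the peaks in each list (vertical axis, log scale) that are at least as wide as the width on the horizontal axis (bp, log scale), for all 44626 REH and 74504 697 peaks (grey lines), with the 25 REH and 10 697 peaks in the genes' windows as points. The 17858-bp peak over lnc-GIP-1 and IGF2BP1 lies at 0.0919% of the REH list, and the widest 697 peak, 11824 bp long beside lnc-LSM11-4, at 0.285% of the 697 list.

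lnc-CPT2-7 and LRP8 shared a promoter region that had a peak in both cell lines. lnc-CPT2-7 (ENSG00000225675, named LRP8-DT in GENCODE for divergent transcript) lies on the plus strand at chr1:53793900-53802200, and LRP8 (ENSG00000157193) on the minus strand at chr1:53708000-53794100, and their starts overlap by 237 bp in GENCODE v44. The REH peak at chr1:53791439-53796965 was 5527 bp wide and lay over both 5′ ends. The 697 peak at chr1:53791703-53794101 was 2399 bp wide and ended 201 bp downstream of the lnc-CPT2-7 start. Its edge fell 1 bp from the start of LRP8, which is below the rounding of 100 bp in the gene's ends. REH and 697 therefore both had H3K27ac on the LRP8 side of the start sites, and the REH peak ran on for 3065 bp into lnc-CPT2-7.

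This asymmetry set the values of the pair. REH peaks covered 5066 bp of the lnc-CPT2-7 window (41.2%) and 697 peaks 2202 bp (17.9%), a ratio of 2.3. In the body of lnc-CPT2-7 alone the covered share was 36.9% in REH and 2.43% in 697. The LRP8 window held 12 REH peaks and 5 697 peaks, which covered 14289 bp (15.9%) and 11413 bp (12.7%), a ratio of 1.25, and LRP8 was not called. In the body of LRP8 the ratio was 1.08.

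The peaks inside LRP8 lay in its 5′ part in both cell lines. Besides the peak at the start, REH had 11 peaks of 217 to 1966 bp, the farthest of which ended 35847 bp from the 5′ end. In 697 there were 4, of 4921, 1756, 521 and 1816 bp, the farthest ending 36703 bp from the 5′ end. All 4 overlapped a REH peak. The 697 peak of 4921 bp, the widest in LRP8 in that cell line, lay 31783 to 36703 bp from the 5′ end and spanned 2 narrower REH peaks of 1461 and 1555 bp. REH had peaks with no 697 peak over them between 5968 and 8944 bp and between 16531 and 28710 bp from the 5′ end. REH thus covered LRP8 in more and narrower pieces than 697.

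In the RefSeq promoter table, which gives 300 bases around a gene's start on GRCh38.p14, the windows of lnc-CPT2-7 and LRP8 share 262 bases on opposite strands. The lnc-CPT2-7 window held 45 CG dinucleotides and had a GC content of 79.7%, and 3.48% and 2.91% of the promoters in the table reached these values. That of LRP8 held 41 CG at a GC content of 78.3%. Each window held 5 matches to the GC box GGGCGG, counted on both strands, and 45.0% of the 35116 promoters held at least 1. No match was found on either strand to TGTGGT, the core letters bound by RUNX factors, to the ETS-type sequence CCGGAAGT, to CCAAT or to TATAAA, which 13.1%, 4.14%, 34.6% and 11.5% of the promoters held. These counts describe the letters in these windows and say nothing of binding. The letters of this region are not printed because they include untranslated parts of LRP8.

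**Figure D3:**
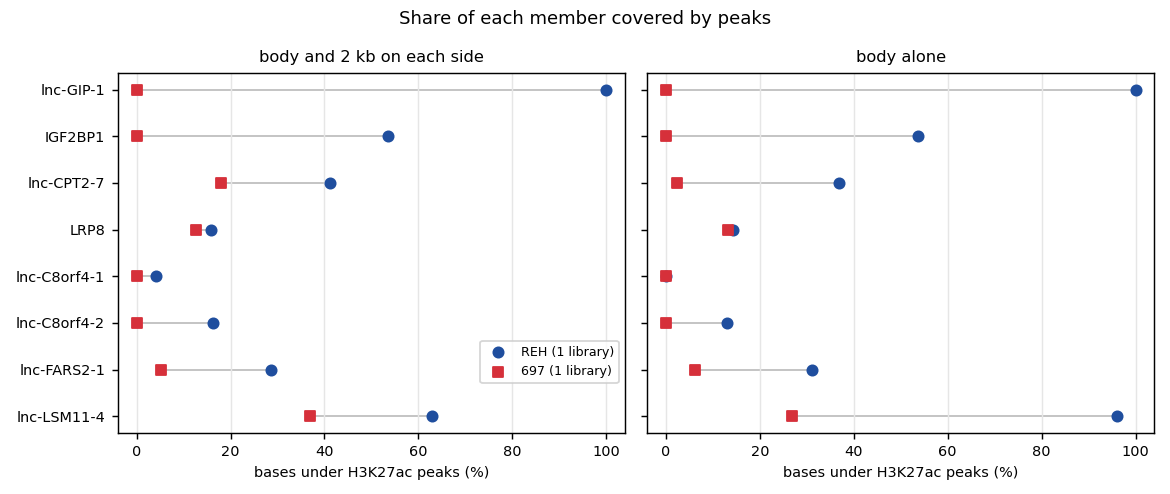
Percent of bases under H3K27ac peaks (horizontal axes) for each gene in REH (circles) and 697 (squares), 1 library each, in the body with 2 kb on each side (left) and in the body alone (right). REH lies to the right of 697 for all 8 genes in the left panel, from 4.05% against 0 at lnc-C8orf4-1 to 100.0% against 0 at lnc-GIP-1, and LRP8 has nearly the same value in both cell lines.

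lnc-FARS2-1 (ENSG00000233064, on the plus strand at chr6:5851700-5870500) was covered more in REH, at its 5′ end and near its 3′ end. RefSeq places it between FARS2, which encodes the mitochondrial phenylalanyl-tRNA synthetase, and NRN1, which encodes neuritin. A REH peak of 818 bp, at chr6:5851097-5851914, lay over the 5′ end, and 697 had no peak there. Another REH peak of 231 bp upstream reached 39 bp into the window. The main part of the coverage was a REH peak of 5660 bp at chr6:5864752-5870411, which 2.41% of the REH peaks equal or exceed in width and which ended near the gene's 3′ end. RefSeq lists a further lncRNA, LOC124901251, over this 3′ part of the gene, and peaks cannot be assigned to 1 of the transcripts. The only 697 peak in the window, 1163 bp wide at chr6:5866710-5867872, lay inside it. REH peaks covered 6517 bp (28.6%) and 697 peaks 1163 bp (5.1%) of the window, a ratio of 5.6. The nearest 697 peak to the 5′ end was thus 15010 bp downstream, within the gene itself.

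lnc-LSM11-4 (ENSG00000253134, on the plus strand at chr5:157702700-157705800) had a REH peak over its body and 4 peaks of 697, 3 of which overlapped the REH peak. In REH a single peak of 4456 bp, at chr5:157702822-157707277, began 122 bp downstream of the 5′ end and ran past the 3′ end, covering 96.1% of the body. In 697, peaks of 783 and 217 bp lay inside the REH peak, so that 26.9% of the body was covered. A further 697 peak of 952 bp, at chr5:157701038-157701989, lay upstream and ended 711 bp before the 5′ end, with no REH peak over it. The largest, of 11824 bp at chr5:157707123-157718946, began 4423 bp downstream of the 5′ end and ran away from the gene, with 678 bp in the window. In the window as a whole REH peaks covered 4456 bp (62.8%) and 697 peaks 2630 bp (37.0%), a ratio of 1.69, and the gene was not called.

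The value at lnc-LSM11-4 depended on how far from the gene the bases were counted. In the body alone the ratio of REH to 697 covered bases was 3.57, which would be called higher in REH. With 5 kb on each side it was 0.778, and with 10 kb it was 0.445, which would be called higher in 697. The REH peak over the gene thus stood beside a region that was covered more in 697, and the plot of covered bases against the flank shows the crossing of the lines at this gene. At the other 7 genes REH covered at least as many bases as 697 at every flank from 0 to 100 kb.

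**Figure D4:**
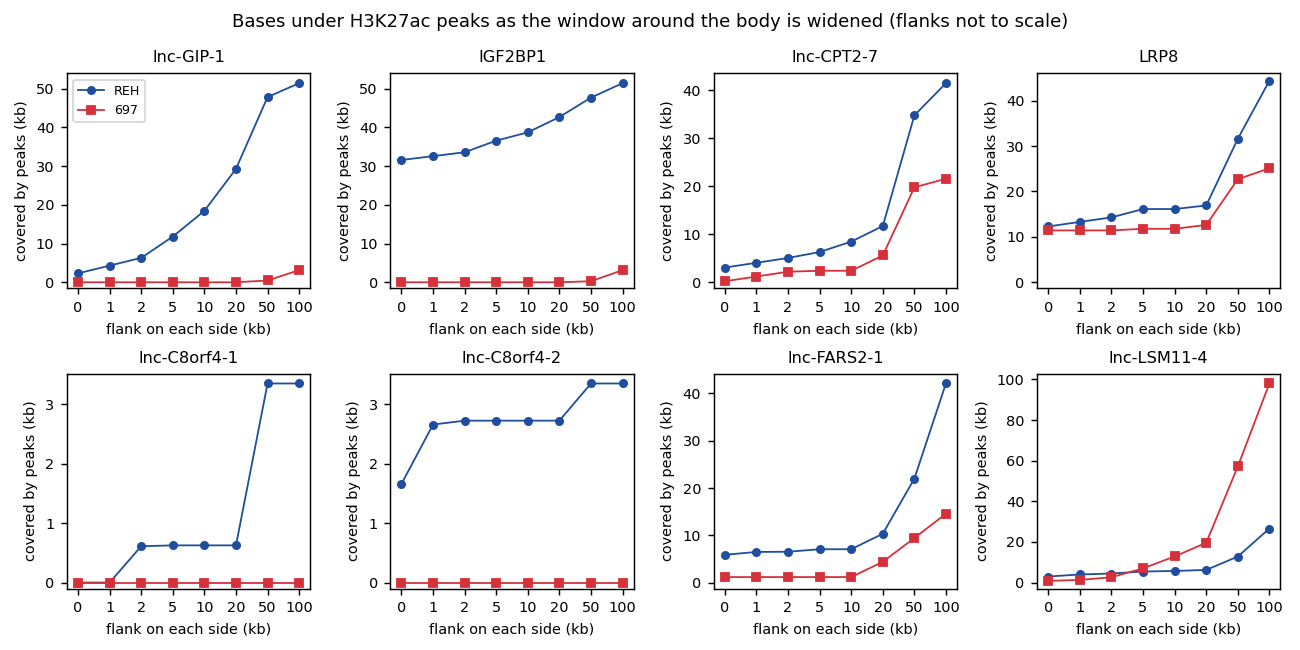
Bases under H3K27ac peaks in kb (vertical axes) in the body of each gene and in flanks of 1 to 100 kb on each side (horizontal axes, steps not to scale), in REH (circles) and 697 (squares), 1 library each. At lnc-LSM11-4 the 697 line passes above the REH line between 2 and 5 kb, and at lnc-C8orf4-1 and lnc-C8orf4-2 the 697 line stays at 0.

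lnc-C8orf4-2 and lnc-C8orf4-1 lie on the plus strand of chromosome 8, with TCIM, formerly C8orf4, a regulator of Wnt signaling, between them in RefSeq, and 697 had no peak at either. lnc-C8orf4-2 (ENSG00000253665, LINC02866 in GENCODE, chr8:39972200-39985000) had a REH peak of 2265 bp over its 5′ end, at chr8:39971135-39973399. A second REH peak, of 460 bp, lay 4433 bp downstream of the 5′ end. Together they covered 2725 bp of the window, or 16.2%. lnc-C8orf4-1 (ENSG00000254143, chr8:40019000-40030100) had no peak in its body in REH. The 1 REH peak in its window, 626 bp wide at chr8:40031489-40032114, lay 12489 bp downstream of its 5′ end and past its 3′ end, and covered 612 bp, or 4.05%. The call for lnc-C8orf4-1 therefore rested on the flank, and with the body alone neither cell line had a covered base. The study describes broad H3K27ac across both lncRNAs in REH. The REH peaks used here covered 13.0% of the lnc-C8orf4-2 body and 0.0% of that of lnc-C8orf4-1, and the reason for this difference was not tested.

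These 3 peaks stood alone. In 697 there was no peak over 2444147 bp around the lncRNAs, from chr8:38855489 to chr8:41299635, and 75 of the 74480 gaps between neighboring 697 peaks, or 0.101%, were at least as long. Here too the share is by number of gaps and does not measure how rarely a gene lies in such a stretch. In the same stretch REH had these 3 peaks and no other, which covered 3351 bp. The absence of 697 peaks at lnc-C8orf4-1 and lnc-C8orf4-2 was thus part of a stretch with few peaks in either cell line, whereas at IGF2BP1 the stretch without a 697 peak held 12 REH peaks.

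At the 5′ ends, a REH peak lay within 2 kb at 7 of the 8 genes, the exception being lnc-C8orf4-1. A 697 peak lay within 2 kb at 3, lnc-CPT2-7, LRP8 and lnc-LSM11-4. The 5′ end itself was under a REH peak at 6 genes, since the REH peak at lnc-LSM11-4 began 122 bp after it, and under a 697 peak at lnc-CPT2-7 and LRP8. For the other genes the nearest 697 peak was 711 bp away at lnc-LSM11-4, 15010 bp at lnc-FARS2-1, 44455 bp at IGF2BP1, 44655 bp at lnc-GIP-1, 1116712 bp at lnc-C8orf4-2 and 1163512 bp at lnc-C8orf4-1. The share of all genes with a peak at or near the 5′ end was not counted in either cell line. The counts at the 5′ ends therefore have no background. The order of the covered percents in REH was lnc-GIP-1, lnc-LSM11-4, IGF2BP1, lnc-CPT2-7, lnc-FARS2-1, lnc-C8orf4-2, LRP8 and lnc-C8orf4-1. In 697 lnc-LSM11-4 came first, before lnc-CPT2-7, LRP8 and lnc-FARS2-1, with the other 4 at 0. Without replicates it cannot be said which neighbors in these orders differ.

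The comparisons rest on the positions and widths of the peaks, because the deposited pileup hardly followed the peaks. Whether the deposited p-values, q-values and fold enrichments follow the peaks was not checked here. Over 24932 pairs of peaks that overlapped only each other, widths in REH and 697 correlated with a Spearman coefficient of 0.473 and pileups with one of 0.025, over peaks that are no replicates of each other. Within REH the correlation of the pileup with the width of the same peak was 0.048, while with the pileup of the next peak in the list it was 0.618. When only peaks with a deposited −log10 p-value of at least 10 were kept, 4 of the 8 genes had a REH peak and 0 a 697 peak, and lnc-GIP-1, IGF2BP1, lnc-CPT2-7 and LRP8 lost theirs. A gene without a peak had no region past the caller's threshold, which does not show that the mark was absent.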

How the data were processed

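Chromatin of REH and 697 was precipitated with an H3K27ac antibody and sequenced beside input DNA. Per the labels, Bowtie2 and hg19 were used by the authors for mapping, and per the file headers they called broad peaks in each cell line against its own input with MACS 2.1.0.20150731, with 1 tag kept per position and q-value cutoffs of 0.05 and 0.1. The published methods give another MACS version. The build was checked: the last REH peak on chromosome 1 ends at 249220297, past its end at 248956422 in GRCh38. For each peak the authors deposited its position, the pileup signal, the −log10 p-value and q-value, and the fold enrichment as a ratio. No tag counts per peak and no input values were used here. ChIP depth was 65241657 and 68911420 filtered tags.

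Peaks were clipped to each window and their union was counted in Python 3.11.15 with numpy 2.4.6 and pandas 2.3.3, after the scripts had been tested on simulated peaks with known answers. Genes were called at a covered-base ratio of at least 2 or with a peak in only 1 cell line. The Wilson interval that served as a limit for the alternative values is at 95%. The genes named are the 8 members of the list, and their choice, that of the windows and that of the call rule were made with earlier results of these data known. Strand, exons, identifiers and sequences came from GENCODE v44 and RefSeq on GRCh38. The strand from GENCODE set which end of each hg19 body was the 5′ end, and no coordinates were converted between builds. The body lengths differed from those in GENCODE by 85 bp or less. IGF2BP1 had no entry in the promoter table used. Marker genes of the cell type and neighboring genes were not analysed here, since no hg19 annotation was used. With 1 library in each group no test between the cell lines was made. The alternatives changed the flank, the gene ends, the peak list, the overlap, the call ratio, the joining of loci, the tile size and the window at the 5′ end.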

Additional observations from a re-analysis of the deposited data

How the results depend on the processing

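Of 72 alternative values for the counts over the genes and the genome tiles, 68 stayed within 1.5 times the reported count and 4 moved further. Filters, smaller windows and the midpoint rule could not add a gene with a peak. The setting with equal numbers of peaks trimmed only the 697 list. Some of the 68 were thus fixed in advance. With a flank of 10 kb, 1 gene, lnc-LSM11-4, was called higher in 697. With peaks of a −log10 p-value of at least 10, which the REH and 697 lists hold 10949 and 7577 of, 4 genes had a REH peak and 0 a 697 peak. The genes called higher in REH fell from 6 to 4 with this filter, with lnc-LSM11-4 joining, which still counted as within 1.5 times. The filter at a q-value of at most 0.05 rests on another of the deposited values. Only the pileup was compared with the peaks, so how far the p-values and q-values follow them is not known. When sharing was judged by the midpoint of a peak, 4 peaks of 697 in the windows were counted as not shared. The difference in covered bases at lnc-LSM11-4, REH minus 697, reversed to -1548 bp with a flank of 5 kb and to -7132 bp with 10 kb, because the wider windows take in 697 peaks beyond the gene. Of 264 alternative values for single genes, 162 kept the covered share of the window inside the 95% Wilson interval of the reported share over its bases, a narrow limit that small shifts pass, 100 moved out of it and these 2 reversed. That interval takes neighboring bases as independent, so it served as a fixed limit and measures no spread. The values include differences between the cell lines that were labelled from the same shares, so they are not separate checks. The number of genes called higher in REH stayed at 6 with no flank, but lnc-C8orf4-1 left and lnc-LSM11-4 joined, and likewise lnc-GIP-1 left and lnc-LSM11-4 joined when a peak counted only with its midpoint in the window. A call ratio of 1.5 gave 7 genes, a ratio of 3 gave 5, and a peak in only 1 cell line 4. No paired analysis was possible because each cell line had 1 library. Depth and input behind single peaks are unknown here, so a gene with 0 covered bases has no upper limit that can be given.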

Other observations

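With wider flanks, the neighborhoods of the genes differed in which cell line had more H3K27ac peaks. The values below include the gene body and the window already described. Within 100 kb of lnc-LSM11-4, 697 had 41 peaks over 98065 bp and REH 15 peaks over 26616 bp, a ratio of REH to 697 of 0.271, although REH covered more of the gene body. No protein-coding gene lies within this distance in RefSeq, and the lncRNA LINC02227 is nearby. The 697 peak of 11824 bp that begins beside lnc-LSM11-4 was the 212th widest in its list. With a flank of 50 kb the values were 57186 bp in 697 and 12802 bp in REH.

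Around IGF2BP1 the direction was the other one, with 16 REH peaks over 51412 bp and 3 697 peaks over 3131 bp within 100 kb, a ratio of 16.4. Around lnc-FARS2-1 REH had 21 peaks over 42172 bp and 697 had 9 over 14572 bp, a ratio of 2.89. Within 100 kb of LRP8, whose body gave a ratio of 1.08, REH peaks covered 44411 bp and 697 peaks 25100 bp, a ratio of 1.77. These distances were chosen after the data were seen, the neighborhoods of lnc-GIP-1 and IGF2BP1 and of lnc-CPT2-7 and LRP8 overlap, and the number of copies of each region in the cell lines was not measured here.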
